A study of Homo sapiens with 16 samples.

Results

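The proteins of the mitochondrial ribosome are encoded by nuclear genes whose symbols begin with MRPL, for the large subunit, or MRPS, for the small subunit. All 78 genes of the deposited count tables with such a symbol (MRPL or MRPS, a number and at most one letter from A to C, pseudogenes left out) were taken, of 60606 gene names in all. Of these, 49 carried large-subunit names and 29 carried small-subunit names. They lay on 21 chromosomes, with 8 genes each on chromosomes 1, 2 and 17 and 7 on chromosome 11. The symbols do not follow the structure in every case: the proteins of MRPS30 and MRPS18A sit in the large subunit, and MRPS36 (now KGD4) encodes a subunit of a dehydrogenase complex of the citric acid cycle. The groups below follow the symbols.

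The mitochondrial ribosome translates the few mRNAs of the mitochondrial genome, all of which encode subunits of the respiratory chain and ATP synthase. Its small subunit reads the mRNA and its large subunit joins the amino acids, and both are built in the mitochondrial matrix from imported proteins and RNAs transcribed from mitochondrial DNA. In clear cell renal carcinoma, loss of VHL and a shift away from respiration are known features, and SETD2, the methyltransferase that places the trimethyl mark on lysine 36 of histone H3, is often lost as well.

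Polyadenylated RNA was measured in 2 established lines of this cancer. In 786-O, cells with intact SETD2 (WT) and cells labelled SETD2 null (KO) were each kept for 72 h in DMSO, the vehicle, or in 100 nM A1331852, which inhibits BCL-XL, a protein that protects cells from apoptosis; each of these 4 groups had 3 libraries. In A498, 2 libraries were labelled SETD2 deficient and 2 were labelled SETD2 add-back, with no treatment. The labels name 1 KO and 1 WT population of 786-O. Nothing in them says whether the libraries of a group came from different cultures, so their spread, which the p-values measure, may be technical.

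Total counts ran from 14172118 to 36037616 per library, and the 78 genes together held 52444 to 136520 of them. Batch 2 held DMSO replicates 1 and 2 of both genotypes, batch 1 held DMSO replicate 3 and all A1331852 libraries, and batch 3 held A498. Replicates 1 and 2 of a DMSO group were close to each other and far from replicate 3: over 77 of the genes the mean chi-square between them was 2.38 in WT and 2.91 in KO, against 37.8 to 50.1 for the pairs with replicate 3. In A1331852, replicate 3 stood farthest from replicate 1 in the KO group (55.4). Renal epithelial markers summed to between 3708 and 9329 CPM in each library (counts per 1000000, scaled by the trimmed mean of M-values, TMM), although CA9 was at 0 in the WT groups of 786-O. Leukocyte markers summed to at most 4.28 CPM, endothelial markers to at most 2.42 CPM and fibroblast markers to at most 65.4 CPM, the last in A498. MS4A1, of B cells, was at 0 in all 16 libraries. The part of other cells in the results was not tested. In bulk RNA, fewer cells of a type and less RNA per cell cannot be told apart.

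SETD2 was read first as a check of the labels. Its level was 70.5, 73.4 and 63.4 CPM in WT DMSO and 31.2, 29.4 and 29.3 CPM in KO DMSO, a log2 change of -1.21 ± 0.18 (standard error (SE), adjusted p = 7.39e-04, edgeR). In A1331852 it was 70.1, 68.7 and 62.8 CPM in WT and 29.2, 47.0 and 52.2 CPM in KO (-0.65 ± 0.18, adjusted p = 0.0168). The KO libraries lay below every WT library, and KO A1331852 replicates 2 and 3 lay between the other KO libraries and WT. In A498 the libraries labelled deficient held 40.6 and 58.5 CPM and those labelled add-back 44.0 and 52.8 CPM (log2 change 0.00 ± 0.17, adjusted p = 0.991), so the RNA level of SETD2 did not separate the A498 labels.

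Promoter sequence was read for 69 of the 78 genes from RefSeq (GRCh38.p14), over 250 bases before to 50 after each gene's start; the other 9 (MRPL35, MRPS36, MRPL2, MRPL15, MRPS28, MRPL13, MRPL23, MRPL21 and MRPL10) had no entry. Members of the ETS family of transcription factors, among them GABPA (also called NRF-2), are known regulators of nuclear genes for mitochondria, as is YY1. The ETS motif CCGGAAG, searched on both strands, was found in 29 of 69 promoters (42.0%), against 10.3% of all 35116 promoters and 12.8% of the 22199 protein-coding ones. The share was 40.5% for the large subunit (17 of 42) and 44.4% for the small subunit (12 of 27). The YY1 motif, searched as the capital letters of the YY1 windows below, was found in 10 of 69 (14.5%, against 0.849% of all promoters). The NRF1 motif, the capitals of the MRPL17 window, was found in 1 (1.45%, against 1.24%), and the E-box CACGTG, read by MYC among others, in 6 (8.70%, against 7.26%). A match is a string of letters and not a measured binding site.

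The windows below, each 24 bases read 5′ to 3′ along the gene's strand with the motif in capitals, come from genes whose transcript levels are described further on. Each was picked for its match and cut around it, so the list does not show how alike the starts are. Of the 69 promoters, only 29 held the ETS motif, 10 the YY1 motif and 1 the NRF1 motif. The ETS motif appears as CCGGAAG or, on the opposite strand, as CTTCCGG.
MRPS21, chr1:150293842-150293865, ETS: aatttccgCTTCCGGtagtgagaa
MRPS34, chr16:1773148-1773171, ETS: accggcctCTTCCGGtgacttccg
MRPS23, chr17:57850043-57850066, ETS: agcagccgCTTCCGGttccggtag
MRPL28, chr16:370516-370539, ETS: cagatcggCTTCCGGttccggtgg
MRPS26, chr20:3046007-3046030, ETS: ccgcgccgCTTCCGGggcacggtg
MRPL48, chr11:73787803-73787826, ETS: ttcagaagCTTCCGGaactaaaat
MRPL58, chr17:75012654-75012677, ETS: agcgcccgCCGGAAGcagtcgcaa
MRPS18A, chr6:43687807-43687830, ETS: gctacgttCCGGAAGcggaaatgg
MRPS18A, chr6:43687765-43687788, YY1: tttttgAAGATGGCGGCcctcaag
MRPS10, chr6:42217835-42217858, YY1: accggcAAGATGGCGGCgcggaca
MRPL46, chr15:88467363-88467386, YY1: gaacgaAAGATGGCGGCgcccgta
MRPL17, chr11:6683405-6683428, NRF1: ctctgatGCGCATGCGCaaacacg
MRPS30, chr5:44808954-44808977, YY1: cgggcaAAGATGGCGGCggccagg
The same ETS letters stood near the starts of genes that rose in KO cells (MRPS34, MRPL28) and of genes that fell (MRPS21, MRPS26). Among genes with a promoter entry, the ETS motif was held by 8 of 14 called higher, 4 of 5 called lower and 16 of 49 not called in KO against WT under A1331852. In A498 it was held by 9 of 21 called higher, 1 of 3 called lower and 18 of 44 not called. These counts are given without a test.

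Levels differed widely within the ribosome, although its proteins are present in equal numbers in the assembled particle with few exceptions. Per kilobase of annotated exon, the mean level over 16 libraries had a median of 22.0 CPM per kb in the large subunit (range 0.00936 to 161.5) and 11.8 in the small subunit (range 0.419 to 158.6). MRPL41 (161.5), MRPL14 (72.9) and MRPL51 (66.8) were highest in the large subunit, and MRPS34 (158.6), MRPS12 (38.6), the counterpart of a decoding-centre protein of bacteria, and MRPS35 (37.1) in the small subunit. MRPL53 (0.00936), MRPL38 (0.696) and MRPL46 (0.877) were lowest in the large subunit, and MRPS24 (0.419), MRPS5 (0.681) and MRPS25 (1.57) in the small subunit.

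Shared exon bases and exon length are given beside these low values. Fragments that overlap exons of more than 1 gene name were not counted, and 72.85% of the exon bases of MRPL53 are shared with CCDC142 on the same strand; MRPL53 held 2 counts over all 16 libraries and was the only member not tested. The shared part was 69.47% for MRPL12, which encodes the stalk protein of the large subunit, 41.08% for MRPL38, 23.3% for MRPS5 and 23.25% for MRPS24, of which a readthrough gene with URGCP shares exons. Exon length summed over all isoforms, by which the counts are divided, was 18309 bases for MRPS25, 13738 for MRPS5 and 6402 for MRPL46. MRPL12 nevertheless stood at 22.0 CPM per kb, rank 25 in the large subunit. MRPS22 and MRPL42, with 16385 and 16368 bases, stood at 2.59 and 2.76 CPM per kb. Whether shared bases or exon length bear on these levels was not tested. A total of 36 members had 79 pseudogenes named after them, which held 0.298% of the counts of gene and pseudogenes together; the share was above 5% only for MRPL45 (6.59%) and MRPS31 (6.57%).

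The genes together took up 0.347% to 0.358% of the counts in WT DMSO and 0.381% to 0.415% in KO DMSO, so the raw shares of these groups did not overlap. In A1331852 the share was 0.385%, 0.380% and 0.324% in WT and 0.505%, 0.437% and 0.370% in KO, which overlapped, since KO replicate 3 lay below WT replicates 1 and 2. In A498 it was 0.464% and 0.423% in the libraries labelled deficient and 0.430% and 0.407% in those labelled add-back, which overlapped. On the TMM-scaled CPM used for single genes, both readings turned. The members summed to 4057, 4195 and 3338 CPM in WT DMSO and 4103, 4270 and 3741 CPM in KO DMSO, which overlapped. In A498 they summed to 4822 and 4464 CPM in the libraries labelled deficient and 3917 and 3789 CPM in those labelled add-back, which did not. In A1331852 the sums were 3590, 3768 and 3293 CPM in WT and 4897, 4048 and 3463 CPM in KO, which overlapped as the shares did. The subunits kept close step: on the CPM scale, the summed level of the large subunit was 1.73 to 1.87 times that of the small subunit in all 16 libraries.

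**Figure D1:**
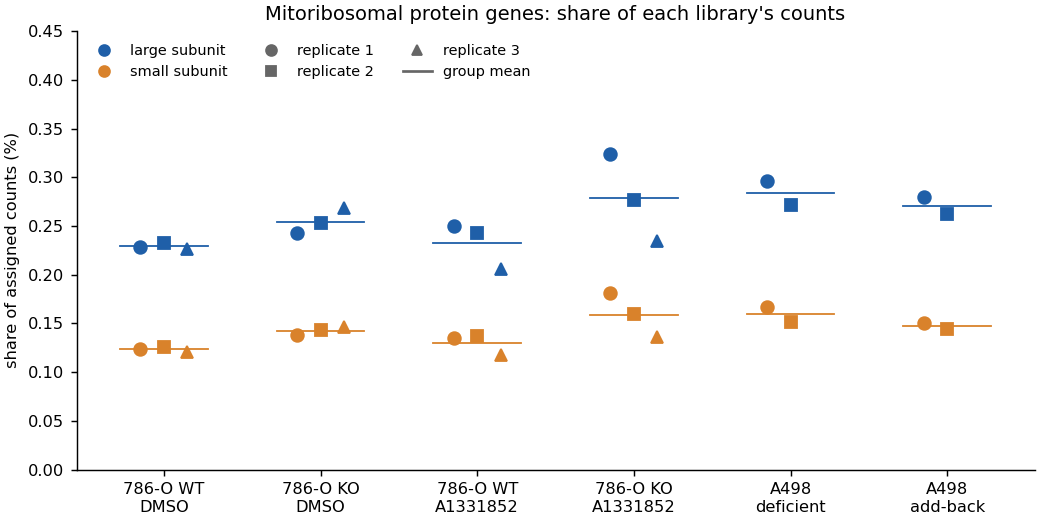
Share of each library's assigned counts (y axis, percent, from 0) held by the large-subunit genes (blue) and the small-subunit genes (orange) in the 6 groups; symbols are replicates and lines are group means. Both subunits move together from library to library, and replicate 3 is the lowest in each A1331852 group.

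In DMSO, few members differed between KO and WT cells. By edgeR's quasi-likelihood test, with p-values adjusted over all 16260 genes tested and a call at an adjusted p under 0.05, 7 of 77 members were called (9.09%), where 18.5% of all genes were. The 3 higher were MRPL44 and MRPL28 of the large subunit and MRPS34 of the small subunit (8.29% of all genes were called higher), and the 4 lower were MRPL24 of the large subunit and MRPS21, MRPS26 and MRPS16 of the small subunit (10.2% of all genes). The median log2 change was 0.04 for the large and 0.05 for the small subunit, beside -0.02 over all genes tested. With the replicate number as a block within each treatment, 19 members were called, where 28.6% of all genes were (12.7% higher and 15.9% lower). Leaving out 1 library gave 1 (without KO replicate 2) to 3 calls, and only that of MRPS21 held each time.

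MRPS21 (chr1:150293861-150308979), the counterpart of a small protein of the bacterial small subunit, changed most among the calls. Its level was 60.9, 58.9 and 73.5 CPM in WT DMSO and 29.2, 30.7 and 40.7 CPM in KO DMSO. Every KO library lay below every WT library, and the log2 change was -0.96 ± 0.11 (SE, adjusted p = 1.97e-04, edgeR). In A1331852 the levels were 62.3, 75.3 and 78.6 CPM in WT and 40.7, 36.9 and 38.3 CPM in KO, again without overlap (-0.89 ± 0.11, adjusted p = 1.99e-04, edgeR). In A498 the direction was the opposite: the libraries labelled deficient held 23.5 and 20.5 CPM and those labelled add-back 15.6 and 15.1 CPM (0.49 ± 0.15, adjusted p = 0.0274, edgeR). The call in A498 was lost without either add-back library, with an adjusted p of up to 0.240.

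MRPS34 (chr16:1771890-1773150), a protein of the small subunit with no bacterial counterpart, whose mutation causes a form of Leigh syndrome, rose in KO cells. It held 171, 188 and 112 CPM in WT DMSO and 261, 271 and 177 CPM in KO DMSO (log2 change 0.59 ± 0.14, adjusted p = 0.0127, edgeR). Replicate 3 was the lowest of each group, and within each batch every KO library was above every WT library. In A1331852 it held 121, 123 and 110 CPM in WT and 271, 193 and 185 CPM in KO, with no overlap (0.88 ± 0.14, adjusted p = 9.58e-04, edgeR). In A498 the libraries labelled deficient held 187 and 152 CPM and those labelled add-back 123 and 127 CPM (0.41 ± 0.13, adjusted p = 0.0290, edgeR). Without a replicate block, MRPS34 was the only member called in the same direction in DMSO and in A498. Its calls did not hold in 4 of 6 fits that left out 1 DMSO library and in 3 of 4 that left out 1 A498 library. With the block within treatments, MRPS18A, MRPS23 and MRPS6 were also called higher in DMSO (adjusted p = 0.0475, 0.0279 and 0.0174, edgeR), as they were in A498. MRPL21, MRPL48 and MRPS35 were called lower in DMSO with the block, and higher in A498.

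The other calls in DMSO were smaller. MRPL28 held 138, 140 and 93.2 CPM in WT and 184, 192 and 143 CPM in KO (0.49 ± 0.15, adjusted p = 0.0418, edgeR). MRPL44, which encodes a large-subunit protein with a fold of the ribonuclease III family, held 35.2, 36.4 and 35.8 CPM in WT and 49.1, 50.2 and 45.9 CPM in KO (0.43 ± 0.11, adjusted p = 0.0189, edgeR). The KO libraries of both genes lay above every WT library. MRPL24 held 74.6, 79.7 and 52.5 CPM in WT and 49.1, 51.4 and 37.4 CPM in KO (-0.58 ± 0.14, adjusted p = 0.0128, edgeR). MRPS16 held 112, 115 and 94.5 CPM in WT and 81.0, 82.6 and 74.5 CPM in KO (-0.44 ± 0.11, adjusted p = 0.0171, edgeR). MRPS26 held 36.1, 38.2 and 26.3 CPM in WT and 25.2, 25.9 and 21.2 CPM in KO (-0.47 ± 0.12, adjusted p = 0.0203, edgeR). For these genes, whose products are an exit-tunnel protein, a protein of the small-subunit body and a mitochondrion-specific protein, the groups did not overlap.

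In A1331852, more members differed between KO and WT cells, and more of them were higher in KO. A total of 22 of 77 members were called (28.6%), close to the 28.2% of all genes, so the number called is not particular to them. Of these, 16 were higher (20.8%, against 13.2% of all genes) and 6 were lower (7.79%, against 15.0%). The large subunit had 9 higher and 3 lower, and the small subunit 7 higher and 3 lower. The log2 change was above 0 in 55 of 77 members, with a median of 0.24 in the large and 0.22 in the small subunit, beside -0.01 over all genes tested. The median over all members ran from 0.12 (without KO replicate 1) to 0.34 (without KO replicate 3) as 1 library was left out. The block within treatments gave 34 calls, where 38.6% of all genes were called (18.7% higher and 19.9% lower). Without both replicates 3, a choice made after seeing the data, there were 39 calls. Leaving out 1 library gave 14 (without WT replicate 2 or KO replicate 2) to 36 calls (without KO replicate 3), and 10 of the 22 calls held each time. Calls of higher members ran from 9 (without KO replicate 1) to 33 (without KO replicate 3), and of lower members from 2 (without WT replicate 2) to 11 (without WT replicate 3). The share of all genes called in the fits without a library is not given here, so their counts are not read as results about the members.

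**Figure D2:**
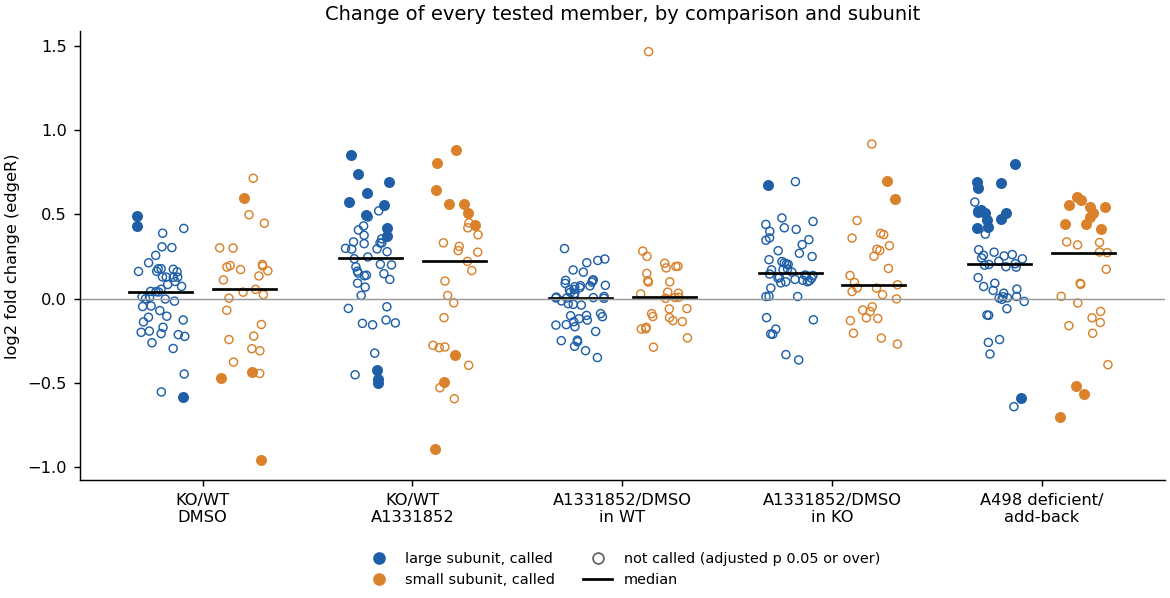
Log2 fold change (y axis) of each of the 77 tested members in 5 comparisons (x axis), large subunit in blue and small in orange, filled where called and open where not, with the median as a black bar. Filled points are mostly above 0 in KO against WT under A1331852 and in A498, none are filled for A1331852 in WT cells, and the open point above 1 there is MRPS6.

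The largest rises of the large subunit in A1331852 were those of MRPL15, MRPL46, MRPL17, MRPL23 and MRPL52. MRPL15, a core protein shared with bacteria, held 54.4, 57.0 and 44.5 CPM in WT and 122, 89.4 and 69.2 CPM in KO (0.85 ± 0.18, adjusted p = 0.00522, edgeR). MRPL17, which lines the exit of the peptide tunnel, held 55.7, 63.3 and 61.4 CPM in WT and 110, 94.4 and 85.3 CPM in KO (0.69 ± 0.12, adjusted p = 0.00180, edgeR). In both genes the KO libraries lay above all WT libraries, and replicate 1 was the highest and replicate 3 the lowest of the KO libraries, as for the members' share of counts. MRPL46 rose by 0.74 ± 0.18, MRPL23, another exit-tunnel protein, by 0.63 ± 0.14, and MRPL52 by 0.57 ± 0.15. MRPL52 was the one of these whose call was lost with a library left out (WT replicate 2 or KO replicate 1, adjusted p up to 0.0595). The called falls were MRPL43 (-0.50 ± 0.11), MRPL24 (-0.48 ± 0.14) and MRPL13 (-0.43 ± 0.15). Their calls were kept in 6, 3 and 2 of the 6 fits without 1 library.

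In the small subunit, MRPS34, MRPS23, MRPS2, MRPS18A and MRPS12 rose most in A1331852. MRPS23 held 44.4, 59.1 and 42.0 CPM in WT and 102, 84.5 and 66.0 CPM in KO (0.80 ± 0.17, adjusted p = 0.00469, edgeR). MRPS2, the counterpart of a bacterial protein of the small-subunit body, held 59.0, 71.4 and 58.8 CPM in WT and 111, 96.7 and 86.1 CPM in KO (0.64 ± 0.12, adjusted p = 0.00235, edgeR). The groups did not overlap in either gene. MRPS10 held 74.5, 76.4 and 60.8 CPM in WT and 111, 96.9 and 76.8 CPM in KO, with every KO library above every WT library (0.43 ± 0.14, adjusted p = 0.0385, edgeR). MRPS12 rose by 0.56 ± 0.19. The calls of MRPS10 and MRPS12 were each lost in 4 of 6 fits without 1 library (adjusted p up to 0.119 and 0.149). MRPS21, MRPS26 (-0.50 ± 0.13) and MRPS16 (-0.34 ± 0.11) fell, as they had in DMSO, with calls kept in 6, 5 and 2 of the 6 such fits.

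**Figure D3:**
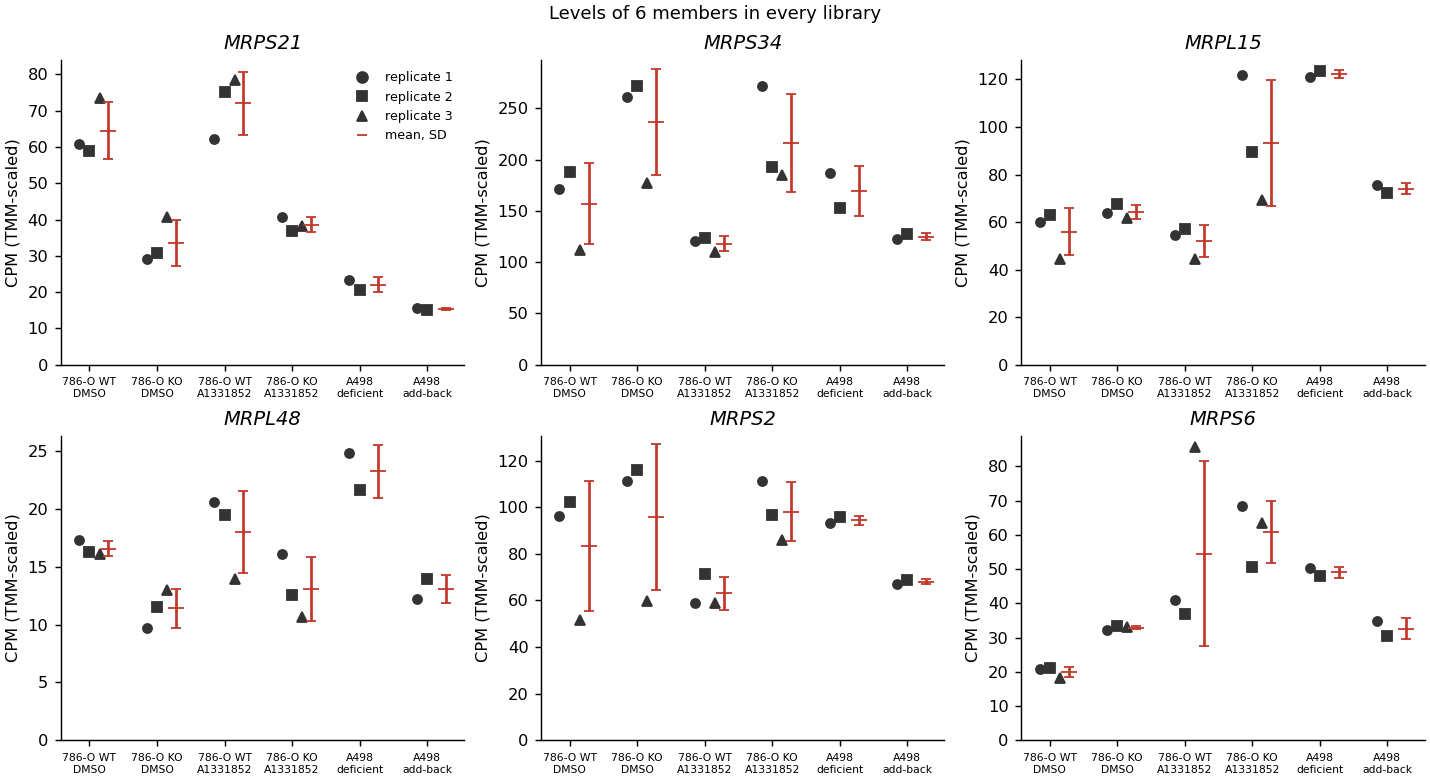
Level in CPM after TMM scaling (y axes, from 0) of 6 members in the 16 libraries by group; symbols are replicates, and red marks are the mean with the SD. MRPS21 is lower in both KO groups and higher in A498 deficient than add-back, MRPS34 is higher in KO and deficient, and MRPS6 has 1 high library, WT A1331852 replicate 3.

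All 7 members called in DMSO were called in the same direction in A1331852 (100% of the 7, and 31.8% of the 22), and these comparisons share no library. Over all genes, 71.1% of the 3001 calls in DMSO were called in A1331852, and 46.5% of those in A1331852 in DMSO. The sign was the same in 63 of 77 members (81.8%), against 75.1% of all genes tested.

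**Figure D4:**
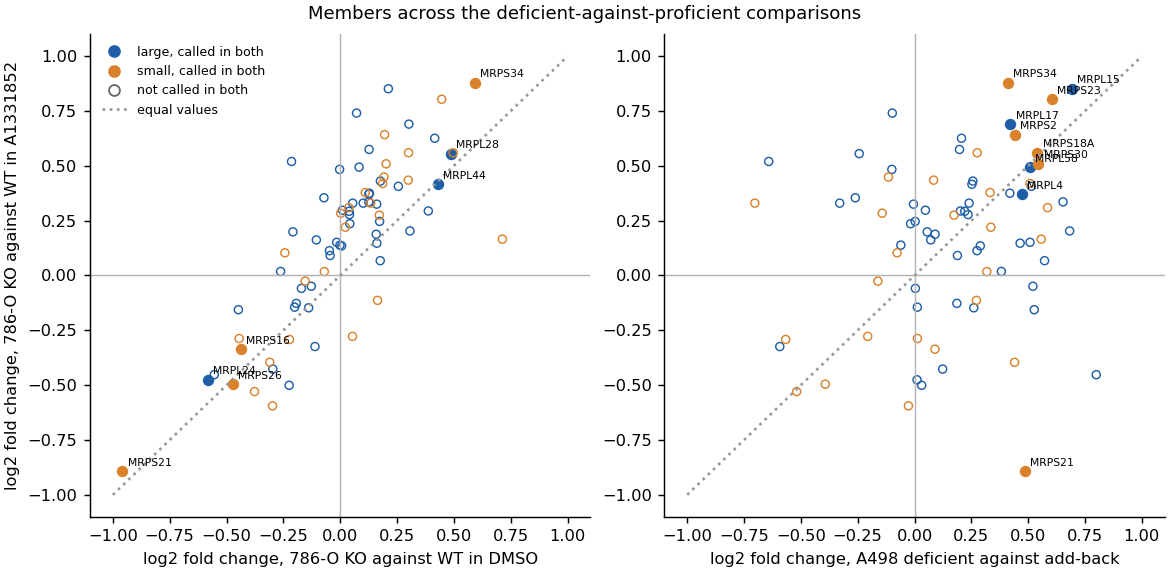
Log2 fold change of each member in KO against WT under A1331852 (y axes) against that in DMSO (left) and in A498 deficient against add-back (right); filled points are called in both comparisons of a panel, and the dotted line marks equal values. The 7 filled points on the left lie near the line, and on the right MRPS21 stands alone at lower right among 10 filled points.

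In both comparisons of KO with WT in 786-O, the direction of a call was also that of the genes around it. For each member the median log2 change of the other tested genes within 1 Mb was taken, where at least 5 were tested. In DMSO the 7 called members all had a neighbourhood median of the same sign, and in A1331852 all 21 of 22 called members that had such a value did (15 higher, 6 lower). Among all called genes the share with the same sign was 76.0% in DMSO and 70.1% in A1331852. For A1331852 against DMSO in KO cells, 1 of 2 called members with a value had a neighbourhood of the same sign. MRPS34 stood in a neighbourhood with a median of 0.41 in DMSO (72 genes, 19 called higher and 0 lower) and 0.54 in A1331852. MRPL28, on the same arm of chromosome 16, had 0.37 (48 genes, 13 higher and 0 lower) and 0.52. The 48 genes around MRPS21 had a median of -0.31 in DMSO (1 higher, 14 lower) and -0.35 in A1331852. MRPS26 fell by 0.47 beside a neighbourhood median of -0.48 in DMSO, and MRPS16 fell by 0.44 beside -0.47, so that neither differed from its surroundings by more than its SE.

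Across members, the change of a gene and the median of its neighbourhood correlated with Pearson's r of 0.63 in DMSO and 0.69 in A1331852 (76 members; Spearman's rho 0.63 and 0.68). Over all 15348 genes with such a value r was 0.26 and 0.22 (rho 0.38 and 0.30). That set holds many genes of lower count, and the part of count level in the gap was not tested. With a window of 5 Mb, r over 77 members was 0.68 and 0.61. The response to A1331852 gave an r of -0.01 among WT and of 0.02 among KO libraries, with neighbourhood medians that were less spread (SD 0.12 and 0.18, against 0.24 and 0.28 in KO against WT). Neighbouring genes share libraries and some members share neighbours, so these are descriptions of the 1 KO and 1 WT population. Copy number was not measured, and what lies behind the shared direction was not tested.

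**Figure D5:**
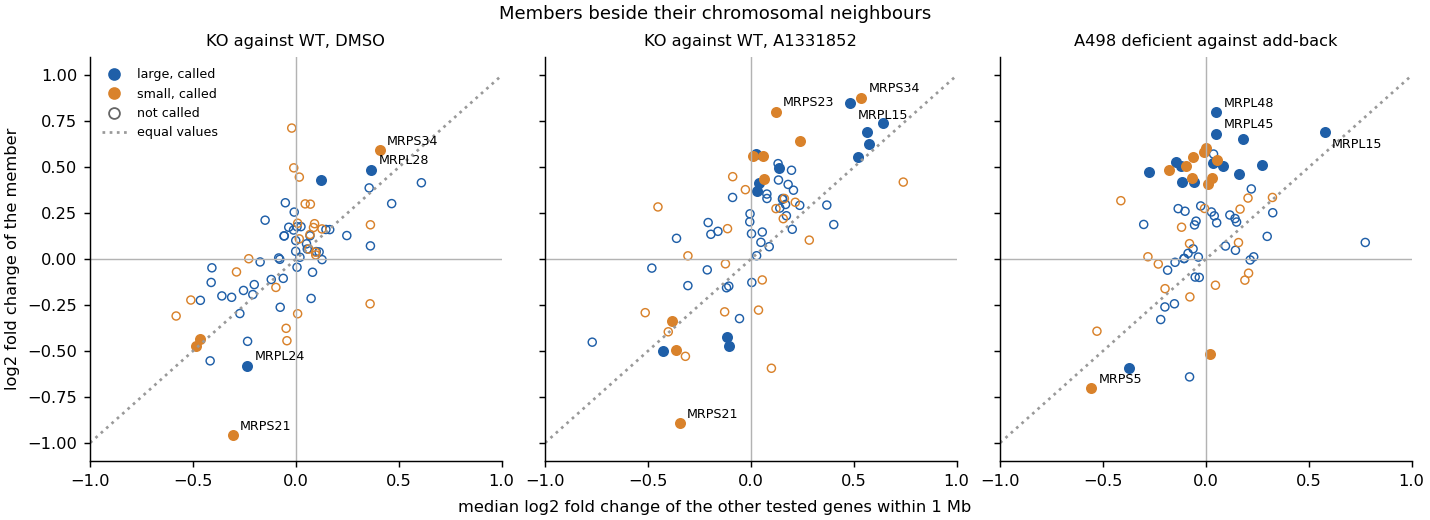
Log2 fold change of each member (y axis) against the median log2 fold change of the other tested genes within 1 Mb (x axis) in 3 comparisons; filled points are called members and the dotted line marks equal values. In both 786-O panels every filled point has the sign of its neighbourhood, whereas in A498 the filled points spread along the x axis to both sides of 0.

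Some called members exceeded their surroundings. In A1331852, MRPS23 was 0.68 above its neighbourhood median of 0.12, MRPL52 was 0.55 above 0.03, MRPS12 was 0.55 above 0.01, and MRPS18A was 0.50 above 0.06. MRPS21 was 0.65 below its neighbourhood in DMSO and 0.55 below it in A1331852. Starts within 1000 bases on the opposite strand were found for 32 members (22 large, 10 small). The partner of MRPS34, EME2, whose start overlaps, rose with it (1.00 ± 0.18 in DMSO, adjusted p = 0.00272, edgeR), whereas SLC7A7, the partner of MRPL52 at 59 bases, fell in DMSO (-2.11 ± 0.25, adjusted p = 1.89e-04, edgeR) where MRPL52 was at 0.13. MRPL46 and MRPS11 start 63 bases apart on opposite strands: under A1331852 MRPL46 rose by 0.74 and MRPS11 was at 0.42 without a call, though with the block MRPS11 was called too (0.44 ± 0.11, adjusted p = 0.00837, edgeR). In A498 MRPS11 rose by 0.51 while MRPL46 was at -0.10 without a call.

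Few members were called for A1331852 against DMSO. In each genotype, DMSO replicate 3 was the only DMSO library in the batch of the A1331852 libraries. With the batch term these comparisons lean on it, so few calls do not show that the members stayed unmoved. In WT cells 0 of 77 were called against DMSO by edgeR, where 0.141% of all genes were (0.0369% higher and 0.105% lower); 2 had an unadjusted p under 0.05, and DESeq2 called 1. The median log2 change was 0.00 in the large and 0.01 in the small subunit. In KO cells 3 of 77 were called, all higher (3.90%, where 6.46% of all genes were called higher and 7.08% lower): MRPL52 (0.67 ± 0.19, adjusted p = 0.0350), MRPS2 (0.70 ± 0.15, adjusted p = 0.0120) and MRPS30 (0.59 ± 0.18, adjusted p = 0.0488). The median was 0.15 in the large and 0.08 in the small subunit, beside 0.01 over all genes, and 60 of 77 members were above 0. Without KO A1331852 replicate 1, 39 members were above 0 and the median over all members was 0.0037. Each of the 3 calls was lost without KO DMSO replicate 3, the only KO DMSO library that shares a batch with A1331852, and within that batch alone 0 members were called. Without KO A1331852 replicate 3 there were 10 calls, and without both A1331852 replicates 3 there were 22, given without the share of all genes called in those fits.

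The difference between the KO and WT responses to A1331852 was tested as an interaction. By edgeR 0 of 77 members were called, where 0.295% of all genes were (0.203% higher and 0.0923% lower); 4 had an unadjusted p under 0.05, and DESeq2 called 0. The interaction was above 0 in 60 members, with a median of 0.17 in the large and 0.14 in the small subunit. This count followed single libraries: it ranged from 39 to 64 as each library was left out. The larger number of KO-against-WT calls in A1331852 than in DMSO is therefore not shown to be a difference between the treatments.

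MRPS6 moved most with A1331852 among the members, without a call. It held 20.7, 21.0 and 18.3 CPM in WT DMSO and 40.9, 36.9 and 85.6 CPM in WT A1331852. It held 32.3, 33.4 and 33.2 CPM in KO DMSO and 68.4, 50.8 and 63.5 CPM in KO A1331852. The treated libraries lay above the DMSO libraries in both genotypes (log2 changes 1.46 ± 0.34, adjusted p = 0.129, and 0.92 ± 0.33, adjusted p = 0.0828, edgeR), with WT replicate 3 far above the others. MRPS6 shares 9.48% of its exon bases with SLC5A3, an inositol transporter gene within it, whose log2 changes were 1.82 and 1.08, likewise without a call. In A498 both rose in the libraries labelled deficient, MRPS6 by 0.56 ± 0.14 (adjusted p = 0.00842, edgeR) and SLC5A3 by 1.11 ± 0.15 (adjusted p = 6.67e-05, edgeR). The part of transcripts of SLC5A3 in the counts of MRPS6 was not tested. MRPS6 was named for its values after they were seen.

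In A498, more members were higher in the libraries labelled deficient than in those labelled add-back. A total of 27 of 77 members were called (35.1%, against 30.2% of all 15424 genes tested): 23 higher (29.9%, against 15.1%) and 4 lower (5.19%, against 15.1%). The large subunit had 13 higher and 1 lower, and the small subunit 10 higher and 3 lower. The median log2 change was 0.20 in the large and 0.27 in the small subunit, beside -0.01 over all genes, and 57 members were above 0. With 2 libraries a group, the count was 5 or 6 without add-back replicate 1 or 2 and 38 or 39 without deficient replicate 1 or 2, where the lone library is assumed to vary like the others. The calls of MRPL3, MRPL15 and MRPL48 held each time.

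MRPL48 (chr11:73787872-73865133), a mitochondrion-specific protein of the large subunit, had the largest called change in A498. It held 24.9 and 21.6 CPM in the libraries labelled deficient and 12.2 and 13.9 CPM in those labelled add-back (0.80 ± 0.16, adjusted p = 0.00174, edgeR). In 786-O it went the other way, with 17.3, 16.3 and 16.1 CPM in WT DMSO and 9.71, 11.5 and 13.0 CPM in KO DMSO. There the groups did not overlap, and the change of -0.55 was called only with the block (-0.56 ± 0.14, adjusted p = 0.0120, edgeR). Its neighbourhood median was -0.42 in 786-O DMSO and 0.05 in A498.

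MRPL15 held 121 and 124 CPM in the libraries labelled deficient and 75.7 and 72.4 CPM in those labelled add-back (0.69 ± 0.13, adjusted p = 8.87e-04, edgeR). MRPL3, a core protein near the peptidyl transferase centre, held 172 and 200 CPM against 114 and 117 CPM (0.65 ± 0.13, adjusted p = 0.00150, edgeR). MRPL45, which anchors the ribosome to the inner membrane and has pseudogenes, held 75.2 and 85.4 CPM against 46.6 and 51.4 CPM (0.68 ± 0.14, adjusted p = 0.00188, edgeR). The groups did not overlap in any of these, as was common with 2 libraries a group. The deficient libraries lay above the add-back libraries in 29 large-subunit and 17 small-subunit members and below them in 4 and 5. They overlapped in 16 and 7, and the share over all genes is not given here. MRPL21 rose by 0.53 ± 0.17. In the small subunit MRPS23 (0.60 ± 0.13), MRPS18B (0.59 ± 0.13), MRPS6, MRPS30 (0.54 ± 0.13) and MRPS18A (0.54 ± 0.14) rose most. The falls were MRPL54 (-0.59 ± 0.18), MRPS5 (-0.70 ± 0.20), MRPS14 (-0.57 ± 0.15) and MRPS28 (-0.52 ± 0.17), the last with 35.77% of its exon bases shared with other genes.

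Of the 25 called members of A498 with a neighbourhood value, 14 had one of the same sign (12 of 22 called higher and 2 of 3 called lower), and 65.1% of all genes called there did. Pearson's r was 0.35 over 75 members (rho 0.31), beside 0.28 over all 14522 genes with such a value (rho 0.23). MRPL15 was the one called member in A498 with a neighbourhood median above 0.5 (0.58, from 5 genes). In 786-O KO against WT its neighbourhood was at 0.48 under A1331852 and at -0.15 in DMSO.

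The lines were compared by what they shared. Between KO against WT in A1331852 and A498, 10 members were called in both (45.5% of 22 and 37.0% of 27). MRPL4, MRPL15, MRPL17, MRPL58, MRPS2, MRPS18A, MRPS23, MRPS30 and MRPS34 were higher in both, and MRPS21 went in opposite directions. Of those higher in both, only MRPL15 kept its call in A498 whichever library was left out. In A1331852, MRPL4, MRPL58 and MRPS30 kept theirs in 2, 1 and 2 of 6 such fits, and the others in all 6. Over all genes 36.9% of the 4102 A1331852 calls that were also tested in A498 were called there. In DMSO without the block the shared calls were MRPS34, in the same direction, and MRPS21, in opposite directions (28.6% of 7). Over all genes, 38.3% of the 2616 DMSO calls also tested in A498 were called there. Of those 1001 genes, 662 changed in the same direction. With the block, MRPS18A, MRPS23 and MRPS6 were shared in the same direction too, and MRPL21, MRPL48 and MRPS35 in opposite directions. A direct test of the difference between the DMSO comparison in 786-O and A498 called 5 members (6.49%, against 13.2% of all genes, 6.12% higher and 7.10% lower in 786-O), all more negative in 786-O.

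The 3 homologues of bacterial S18 and the peptidyl-tRNA hydrolase MRPL58, which is built into the large subunit and frees stalled ribosomes, were followed in every comparison. MRPS18A held 25.6, 27.6 and 21.5 CPM in WT A1331852 and 40.0, 35.8 and 33.9 CPM in KO, without overlap (0.56 ± 0.12, adjusted p = 0.00607, edgeR). In DMSO its change was 0.30 ± 0.12 without a call (adjusted p = 0.114, and 0.0475 with the block). MRPS18B changed by 0.04 ± 0.13 in DMSO and 0.31 ± 0.13 in A1331852 without a call, and MRPS18C by 0.11 ± 0.24 and 0.38 ± 0.24. In A498 MRPS18B held 58.8 and 58.7 CPM against 38.1 and 38.5 CPM, and MRPS18C held 38.9 and 38.0 CPM against 31.1 and 28.6 CPM (0.33 ± 0.14, adjusted p = 0.0837, edgeR). MRPL58 changed by 0.08 ± 0.15 in DMSO, rose by 0.49 ± 0.16 under A1331852 and rose by 0.51 ± 0.14 in A498. For A1331852 against DMSO in WT the changes of MRPS18A, MRPS18B, MRPS18C and MRPL58 were 0.10, 0.19, -0.09 and 0.01, and in KO they were 0.36, 0.46, 0.18 and 0.42, with no call. Their interactions were 0.26, 0.27, 0.27 and 0.41, and their differences between lines -0.27, -0.58, -0.25 and -0.46, also with no call.

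Other parts of mitochondrial translation were read from lists. Of 5 mitoribosome proteins under other names, DAP3, a GTP-binding protein of the small subunit, fell in KO DMSO (-0.82 ± 0.13, adjusted p = 0.00154, edgeR), and GADD45GIP1 rose in KO under A1331852 (0.58 ± 0.16). With 1 library left out, 1 of the 5 was called lower in DMSO each time. In A1331852, 0 to 1 were then called higher and 0 to 2 lower. Of 12 translation factors, 1 rose and 1 fell in DMSO and 2 rose in A1331852, or 16.7% called in each, against 18.5% and 28.2% of all genes. GFM2, the recycling factor, rose in both (0.43 ± 0.12 and 0.41 ± 0.12), TUFM, the elongation factor, rose in A1331852 (0.67 ± 0.11), and PDF, which removes formyl groups, fell in DMSO (-0.81 ± 0.21). The DMSO calls of GFM2 and PDF were lost whichever library was left out, when 0 of the 12 were called. In A1331852, 1 to 3 factors were then called higher and 0 to 1 lower. In A498 MTRF1 rose (0.53 ± 0.17), 1 of 11 tested.

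Of 27 assembly and rRNA modification factors, 1 rose and 3 fell in DMSO, 5 rose and 2 fell in A1331852, and 6 rose and 1 fell in A498. The shares called, 14.8%, 25.9% and 25.9%, were below the 18.5%, 28.2% and 30.2% of all genes. The 6 that rose in A498 were 0 without add-back replicate 1 and 12 without deficient replicate 2. YBEY, an rRNA-processing nuclease, fell in KO cells in both treatments (-0.92 ± 0.22 and -1.28 ± 0.23). With 1 library left out, 0 of these 27 factors were called higher and 0 to 1 lower in DMSO. In A1331852, 1 to 7 were then called higher and 2 to 3 lower. Of 19 tested mitochondrial aminoacyl-tRNA synthetase genes, 1 rose and 3 fell in DMSO, 3 rose and 4 fell in A1331852, and 4 rose in A498. The shares called were 21.1%, 36.8% and 21.1%. With 1 library left out, 1 was called higher and 0 to 2 lower in DMSO, and 2 to 5 in each direction in A1331852. The 4 that rose in A498 were 1 without add-back replicate 2 and 6 without deficient replicate 2. AARS2 rose in KO cells in both treatments (0.77 ± 0.13 and 0.63 ± 0.13), WARS2 fell in A1331852 (-1.06 ± 0.15), and CARS2 rose in A498 (1.09 ± 0.13).

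The mRNAs that the ribosome translates, the 13 of the mitochondrial genome, went apart from its protein genes under A1331852. In KO against WT, 0 of 13 were called in DMSO by edgeR (1 at an unadjusted p under 0.05, median 0.01), and 9 of 13 fell in A1331852 (69.2%, against 15.0% of all genes lower; median -0.68), 7 to 12 as each library was left out. MT-CO1, a subunit of cytochrome c oxidase, held 4390, 6352 and 6997 CPM in WT A1331852 and 2668, 2066 and 2266 CPM in KO (-1.34 ± 0.17, adjusted p = 1.94e-04, edgeR). MT-CYB, of complex III, held 888, 1538 and 923 CPM in WT and 657, 525 and 443 CPM in KO (-1.04 ± 0.20, adjusted p = 0.00294, edgeR). All KO libraries lay below all WT libraries in both.

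For A1331852 against DMSO in KO cells, 10 of the 13 fell (76.9%, against 7.08% of all genes lower), with a median of -0.84. There 60 of 77 ribosomal protein genes were above 0, or 39 of 77 without KO A1331852 replicate 1. Leaving out KO DMSO replicate 3 left 1 of the 10 calls, and within batch 1 alone there were 0, with a median of -0.82 there. The interaction called 0 of 13 by edgeR (9 at an unadjusted p under 0.05, median -0.65). In A498, 7 of 13 rose in the libraries labelled deficient (median 0.44), 4 without add-back replicate 1 and 12 without deficient replicate 1. The 7 were 53.8% of the 13, against 15.1% of all genes called higher. MT-ND4L held 492 and 865 CPM in the libraries labelled deficient and 357 and 409 CPM in those labelled add-back (0.79 ± 0.19, adjusted p = 0.00617, edgeR). Poly-A selection captures these mRNAs, whose tails are short, with an efficiency that was not measured.

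Among 11 regulators of nuclear genes for mitochondria, 7 rose in A498 (1 to 7 with 1 library left out), led by PPARGC1A (1.94 ± 0.58, adjusted p = 0.0217, edgeR) and MYC (1.30 ± 0.13, adjusted p = 5.53e-06, edgeR). The 7 were 63.6% of the list, against 15.1% of all genes called higher in A498. In 786-O, PPRC1 fell in KO DMSO (-0.57 ± 0.14), and ESRRA (0.50 ± 0.14) and PPARGC1B (0.98 ± 0.28) rose in KO under A1331852. The shares called there were 9.09% in DMSO and 18.2% in A1331852, below the 18.5% and 28.2% of all genes. With 1 library left out, 0 to 1 of the list were called lower in DMSO and 0 to 2 higher in A1331852. PPARGC1A fell with A1331852 in KO cells (-1.97 ± 0.38, adjusted p = 0.00701, edgeR), where PPRC1 and GABPB1, a partner of GABPA, rose by 0.61 ± 0.18 and 0.63 ± 0.17. These were 27.3% of the list, against 13.5% of all genes. With 1 library left out, 0 to 3 of the list were called higher and 0 to 1 lower.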

How the data were processed

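Each library came with its own deposited table of counts. The authors counted fragments per gene name with featureCounts 1.5.0-p3 over exons of GENCODE 41 (strand setting 2), per the file headers, from STAR alignments to GRCh38; the submitters' processing notes also name MultiQC 1.7 and DESeq2. The tables also give exon length. Fragments over more than 1 gene were left uncounted. Groups and batches came from the labels.

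edgeR 4.0.16 under R 4.3.3 tested the changes (TMM, low-count filter by group with a minimum count of 10, quasi-likelihood F test), adjusted by Benjamini-Hochberg over all genes tested. One model with a batch term held the 12 libraries of 786-O, another the 4 of A498, and a further one all 16 for the difference between lines. DESeq2 1.42.0, limma 3.58.1 (voom), other scalings, filters and blocks were alternatives. The script was tested on simulated data. CPM in the text are TMM-scaled over 16 libraries, and ± is the SE of a log2 change.

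Same-numbered WT and KO libraries deviated together (correlations 0.569 to 0.765 in DMSO and 0.271 to 0.506 in A1331852). Same-numbered DMSO and A1331852 libraries did not (-0.046 to 0.054). A block that pairs WT with KO by number within a treatment was therefore fitted as an alternative. The main fit, which gave the calls named in the text unless a block is stated, held no such block. In DMSO, replicates 1 and 2, which share a batch, correlated as strongly across numbers (0.566 and 0.601), so number and batch are not separated there. In A1331852, replicates 1 and 2 correlated by 0.222 and 0.130 across numbers, against 0.271 and 0.280 for the same number. The labels do not say what a number shares. In A498 same-numbered libraries correlated by 0.152 over 2 pairs, and the main fit held no block there either.

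Named were, per comparison and subunit, up to 5 called members with the largest rises and falls, the 3 highest and lowest per length, MRPS18A, MRPS18B, MRPS18C, MRPL58, members under the filter, members called in both lines, SETD2, and up to 2 called genes per list and direction, of which some are given as counts. Members and lists were chosen with earlier results of these data known.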

Additional observations from a re-analysis of the deposited data

Results flagged for a closer look

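For 5 members the change of 786-O KO against WT in DMSO differed from that of A498 deficient against add-back by edgeR's test of the difference itself, over all 17868 genes tested. The difference (786-O minus A498, log2) was -1.47 ± 0.18 for MRPS21 (adjusted p = 9.62e-05), -1.38 ± 0.29 for MRPL48 (adjusted p = 0.00514), -1.005 ± 0.26 for MRPL21 (adjusted p = 0.0182), -0.78 ± 0.22 for MRPS35 (adjusted p = 0.0288) and -0.68 ± 0.19 for MRPL37 (adjusted p = 0.0281). In all 5 the change was below 0 in 786-O and above 0 in A498. MRPS21 and MRPL48 held with each of the 10 libraries left out in turn, and the other three did not. MRPL21 held 22.9, 26.5 and 31.1 CPM in WT DMSO, 17.7, 19.2 and 22.1 CPM in KO DMSO, 30.8 and 23.0 CPM in A498 deficient and 17.5 and 19.1 CPM in add-back. MRPS35 held 58.0, 55.1 and 62.1 CPM, 44.7, 43.2 and 54.8 CPM, 135 and 121 CPM, and 95.3 and 89.4 CPM in the same order. The neighbourhood medians within 1 Mb were below 0 in 786-O DMSO for all 5, from -0.58 at MRPS35 to -0.23 at MRPL21, and their part in the difference was not tested. Line, batch and how SETD2 was altered cannot be told apart here.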

How the results depend on the processing

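The number of members called depended on the fit, and no named member with a call reversed its direction under any alternative. Of 1246 settings of named members, 1048 kept their side of the threshold, 174 fell below it and 24 passed it. For KO against WT in DMSO (7 calls) there were 15 with DESeq2, 18 with the replicate block over both treatments, 19 with the block within treatments, 1 with no batch term and 40 in batch 2 alone. In A1331852 (22) there were 36 and 34 with these blocks, 8 with no batch term and 39 without both replicates 3. For A1331852 in WT (0) there was 1 with DESeq2, 1 with no filter, 12 with the block and 1 without both replicates 3. In KO (3) there were 9 with DESeq2, 5 with no filter, 11 with the block, 0 in batch 1 alone and 22 without both replicates 3. The interaction (0) gave 2 without both replicates 3. The line difference (5) gave 8 with DESeq2, 12 with the block and 2 with no batch term. In A498 (27) the block gave 30. The share of all genes called also moved with the fit. With the block within treatments it was 28.6% in DMSO and 38.6% in A1331852, against 18.5% and 28.2% in the main fit. For the other alternatives, and with a library left out, that share is not given beside the counts of members. Those counts are therefore not read as results about the members.

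Leaving out each library gave 1 to 3 calls in DMSO, 14 to 36 in A1331852, 0 to 1 for A1331852 in WT, 0 to 10 in KO, 0 for the interaction, 5 to 39 in A498 and 2 to 5 for the line difference. Calls that held each time were 1 of 7, 10 of 22, 0 of 3, 3 of 27 and 2 of 5 for the comparisons that had any. The causes were not tested. Upper-quartile scaling moved the median of all genes by 0.108 for the line difference. Leaving out WT A1331852 replicate 3 gave 1 call in WT, and low counts limit MRPL53 and MRPS24.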
